A study of Mus musculus with 30 samples.

Results

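Tianeptine and desipramine, a pair of antidepressants, were compared in the nucleus accumbens of mice with a nerve injury. The comparison set the 6 libraries of injured mice on tianeptine against the 4 libraries of injured mice on desipramine, 10 of the 30 libraries of the series, chosen by the surgery and the drug in the sample labels. Each library held polyadenylated RNA from bilateral punches of 1 male C57Bl/6J mouse. The injured mice had a tibial spared nerve injury (SNI), an operation on branches of the sciatic nerve that models neuropathic pain. Drug injections into the abdomen began 4 weeks after surgery and were given 2 times a day for 3 weeks, with tianeptine at 30 mg/kg or desipramine at 15 mg/kg. The doses differ, so every difference below is between these treatments as given, not between the drugs at a matched dose. The same model held 6 sham-operated mice on tianeptine, 4 sham mice on desipramine, 5 SNI mice on saline and 5 sham mice on saline, all of the same strain, sex and schedule. The hour at which tissue was collected is not given in the sources used here.

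Tianeptine is an agonist of the mu-opioid receptor. Desipramine, a tricyclic compound, inhibits the transporter that takes noradrenaline back into nerve endings. The nucleus accumbens, the ventral part of the striatum, is built mainly of medium spiny neurons, which carry the dopamine receptors DRD1 or DRD2 and use GABA. Striatal cells, like most cells, hold a molecular clock. In it the proteins CLOCK and BMAL1 bind E-box letters and activate genes of the PER, CRY, REV-ERB, DEC and CIART repressors, which act back on CLOCK and BMAL1, and of the output activators DBP, TEF and HLF, which bind D-box letters.

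Depth ran from 26.4 to 107 M (mega) counts in the SNI tianeptine libraries and from 25.7 to 28.5 M in the SNI desipramine libraries. Replicates 5 and 6 of the tianeptine groups and replicate 5 of the saline groups form a second library set of 98 to 120.7 M, which holds no desipramine library. The set was a term of the model. Within the first set the numbers in the library names run from 1 to 4 for SNI tianeptine and from 5 to 8 for SNI desipramine. In sham they run from 13 to 16 for tianeptine and from 17 to 20 for desipramine. In both surgeries an effect of handling in that order and the drug thus cannot be told apart. Slc6a2, the gene of the noradrenaline transporter, was too low to test, with 28 counts in the whole series, 4 of them in SNI tianeptine and 2 in SNI desipramine.

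The SNI desipramine libraries differed in their levels of tissue markers. A list score is the average of the log2 CPM (counts per 1 M counts) of a list's genes, after each gene's mean over the 30 libraries was subtracted. The score of 24 medium spiny neuron markers ran from -0.39 to 0.39 in the 6 SNI tianeptine libraries, with an SD of 0.27. It was -0.28, -1.94, -0.66 and 0.35 in SNI desipramine replicates 1 to 4, with an SD of 0.97. Replicate 2 on desipramine held the least signal of these defining cells of the accumbens, and its Drd1 level was 19.3 CPM, where the tianeptine libraries had 116 to 261 CPM and the other desipramine libraries 106 to 231 CPM. Markers of septal, preoptic and hypothalamic neurons, from regions outside the accumbens, went the other way, with scores of -0.65 to 0.39 on tianeptine and 0.52, 1.45, 1.40 and -0.11 on desipramine. Markers of the thalamus and habenula scored -0.39 to 0.17 on tianeptine and 0.51, 1.56, 1.31 and -0.33 on desipramine. Desipramine replicates 1 to 3 were above every SNI tianeptine library for both lists, and replicate 4 lay within the tianeptine range. Septal scores ran from -0.85 to 0.77 in SNI saline, -0.83 to 1.11 in sham tianeptine and -0.56 to 0.01 in sham desipramine. Desipramine replicate 1, at 0.52, thus lay within the SNI saline and sham tianeptine ranges. Thalamic scores in these groups ran from -0.50 to 0.38, from -0.29 to 0.35 and from -0.56 to -0.13. In summed levels, the septal list ran from 403 to 1131 CPM on tianeptine and 813 to 1497 CPM on desipramine. By this measure desipramine replicate 1, at 1055 CPM, lay within the SNI tianeptine range. The thalamic list ran from 128 to 198 CPM on tianeptine and 143 to 425 CPM on desipramine. Of the 25 septal and 13 thalamic markers, Hmx3 had no count in the SNI tianeptine libraries, and all markers had counts in the SNI desipramine libraries. Cortical excitatory neuron markers varied widely in both groups, from -1.58 to 1.71 on tianeptine and from -1.84 to 0.22 on desipramine. In bulk tissue, fewer cells of a type and less RNA per cell cannot be told apart.

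**Figure D1:**
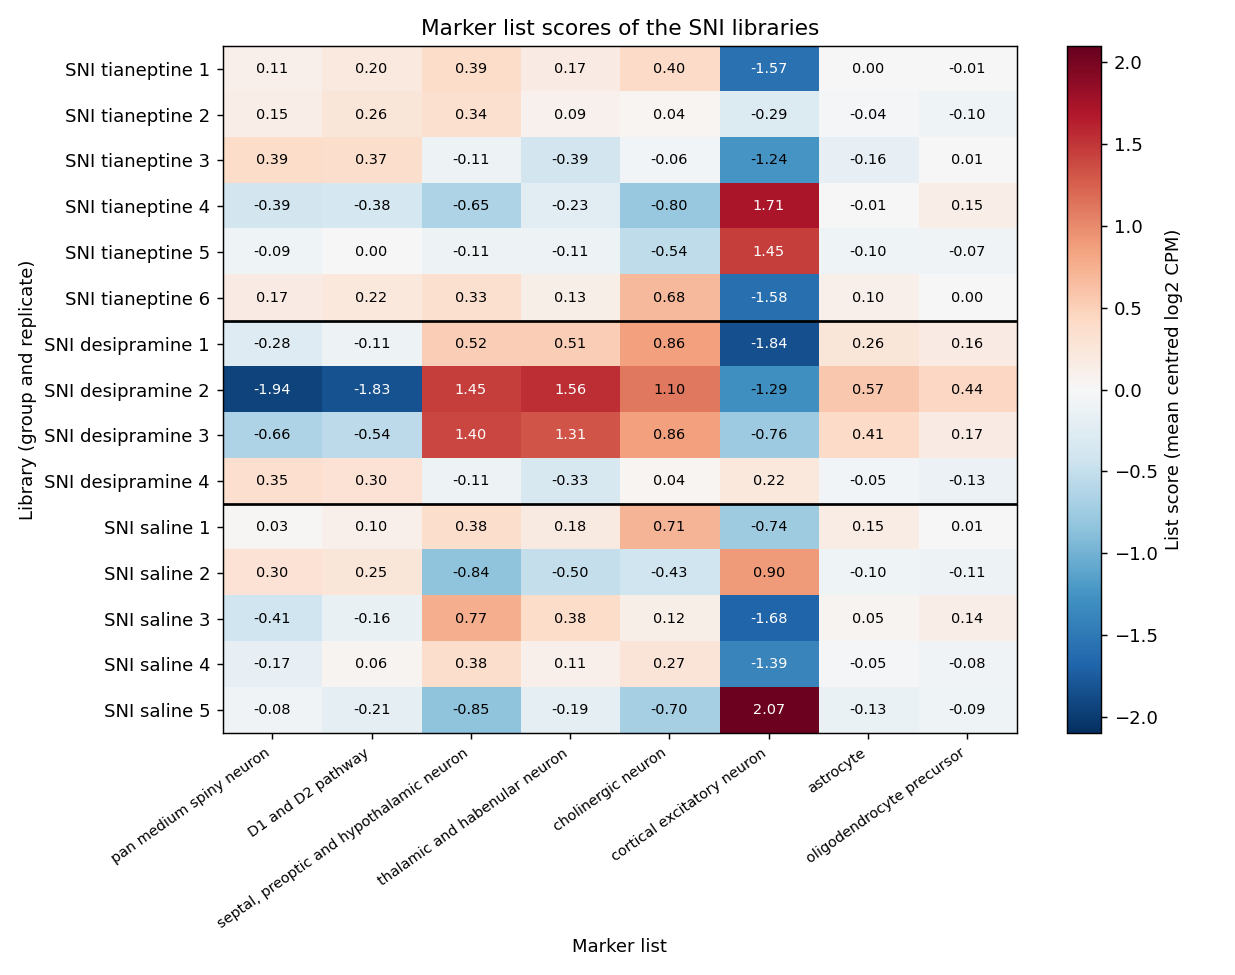
Marker list scores (mean centred log2 CPM) of the 15 SNI libraries, with libraries in rows and lists in columns, red above and blue below the mean of all 30 libraries. SNI desipramine replicates 2 and 3 have the highest septal and thalamic scores of the SNI libraries, 1.45 and 1.40, and 1.56 and 1.31, and replicate 2 has the lowest medium spiny neuron score, -1.94.

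In SNI mice, 7 genes of the molecular clock were higher with tianeptine than with desipramine, among them Ciart, Dbp and Tef. Gal, Lhx9 and Tcf7l2, from the marker lists of other brain regions, were lower with tianeptine, and so were Kdr and Calr. Across all 23736 genes tested, 315 passed the edgeR test at an adjusted p under 0.05, which is 1.33% of them. Of these, 76 were higher with tianeptine (0.32%) and 239 lower (1.01%), and 19 and 68 of them were gene models without a proper name. The median log2 fold change was 0.39 over the higher genes and -0.69 over the lower ones, against 0.0014 over all genes tested. At an unadjusted p under 0.05 there were 5095 genes. The number passing rested on single libraries. It was 0 without SNI tianeptine replicate 2, without SNI tianeptine replicate 3, without SNI desipramine replicate 2 and without SNI desipramine replicate 3, so each call named below is lost in those fits. It was 91 without tianeptine replicate 1, 48 without tianeptine replicate 5, 58 without desipramine replicate 1, 641 without tianeptine replicate 6 and 4825 without desipramine replicate 4, the desipramine library whose septal and thalamic scores lay within the tianeptine range. Within the first library set, 27 genes passed, 10 higher and 17 lower, all among the 315. With only the SNI tianeptine and SNI desipramine libraries in the fit, 0 genes passed.

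The lower genes were most abundant in the desipramine libraries with the highest septal and thalamic scores. Their median log2 CPM, set against the SNI tianeptine mean, lay between -0.15 and 0.21 in the tianeptine libraries and was 0.59, 1.08, 0.76 and 0.08 in SNI desipramine replicates 1 to 4. For the 76 higher genes it lay between -0.11 and 0.09 on tianeptine and was -0.37, -0.61, -0.42 and -0.18 on desipramine. Without SNI desipramine replicates 2 and 3 together, 0 genes passed in edgeR, with 1039 at an unadjusted p under 0.05. All 315 kept their sign there, but 112 of the 239 lower genes shrank to under 50% of their log2 fold change, against 5 of the 76 higher genes. The genes were chosen on these same libraries, with replicates 2 and 3 included, so these counts describe them and test nothing. With the medium spiny and septal scores as covariates, 4 genes passed, Dbp, Tef and 1 unnamed gene model higher and Cacna1a, a calcium channel subunit gene, lower.

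**Figure D2:**
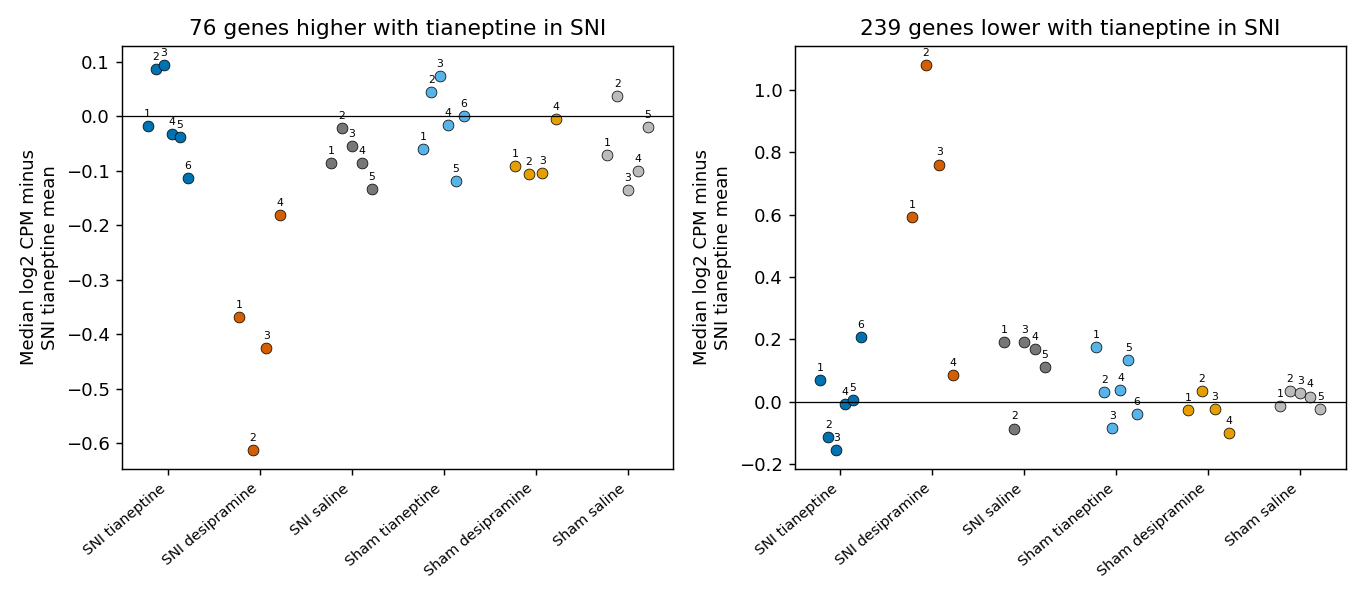
Median over the 76 higher genes (left) and the 239 lower genes (right) of log2 CPM minus the SNI tianeptine mean, 1 point per library with its replicate number, in all 6 groups. These genes were chosen on the SNI tianeptine and SNI desipramine libraries, and for the lower genes SNI desipramine replicate 2 stands at 1.08 and replicate 4 at 0.08.

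Of the 23 clock genes tested, 7 were higher with tianeptine and 1 lower, where 1.33% of all genes passed, and 18 of the 23 had a positive log2 fold change, with a median of 0.33. In sham mice 3 of the 23 were higher and 1 lower, where 0.0716% of all genes passed. There 13 of the 23 were positive, with a median of 0.01, against 53.4% of all genes. The list score in sham ran from -0.02 to 0.24 on tianeptine and from -0.10 to 0.03 on desipramine. The list holds genes that passed in opposite directions, so its median cannot show whether it shifted in sham. The list was chosen with results of these data known. Ciart, a repressor of CLOCK and BMAL1 (mm10 chromosome 3, 95878503 to 95882251, minus strand, GENCODE M21), had 8.91, 9.42, 9.86, 11.9, 9.17 and 9.39 CPM in the SNI tianeptine libraries. The SNI desipramine libraries had 6.37, 5.19, 6.38 and 5.15 CPM. Every tianeptine library was above every desipramine library, as for 281 of all genes tested (1.18%), and 254 genes (1.07%) lay apart in the other direction. In sham these shares were 1.48% and 1.23%. The difference was 0.77 ± 0.13 (log2 fold change ± SE, adjusted p = 0.0147). In sham mice, where no library is shared with the SNI comparison, Ciart had 9.73 to 12.3 CPM on tianeptine and 4.05 to 5.57 CPM on desipramine, with a difference of 1.17 ± 0.13 (adjusted p = 3.8e-05).

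Dbp, a PAR bZIP output activator (chromosome 7, 45705088 to 45710203, plus strand), had 113, 122, 145, 103, 102 and 112 CPM with tianeptine in SNI. With desipramine it had 70, 41.7, 56.6 and 77.2 CPM. The groups did not overlap, and the lowest desipramine level was that of replicate 2. The difference was 0.96 ± 0.16 (adjusted p = 0.0147), and in sham mice it was 0.80 ± 0.16 (adjusted p = 0.048), with 99.6 to 133 CPM on tianeptine and 55.2 to 89.9 CPM on desipramine. Tef, of the same family, had 508, 531, 571, 448, 482 and 498 CPM with tianeptine in SNI and 371, 258, 316 and 441 CPM with desipramine, again without overlap. It was 0.55 ± 0.11 higher with tianeptine (adjusted p = 0.0196). Hlf, the other member, ran from 116 to 174 CPM on tianeptine and 70.9 to 146 CPM on desipramine, which overlap, and did not pass (0.46 ± 0.15, adjusted p = 0.0878).

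Of the 6 clock genes of smallest p, all of which passed, the promoters of 3 are shown because they hold the E-box, the letters CACGTG at which CLOCK and BMAL1 bind. The windows run from 250 bases before to 50 bases after the transcription start in RefSeq on GRCm38.p6, read 5′ to 3′ on the gene's strand, with the E-box in capitals.
Ciart, chr3:95882179-95882478, minus strand: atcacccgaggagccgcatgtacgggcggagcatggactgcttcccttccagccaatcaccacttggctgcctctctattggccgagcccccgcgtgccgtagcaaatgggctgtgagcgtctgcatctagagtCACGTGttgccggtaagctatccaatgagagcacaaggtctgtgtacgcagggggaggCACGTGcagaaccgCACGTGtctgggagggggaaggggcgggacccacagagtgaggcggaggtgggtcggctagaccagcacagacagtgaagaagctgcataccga
Tef, chr15:81802423-81802722, plus strand: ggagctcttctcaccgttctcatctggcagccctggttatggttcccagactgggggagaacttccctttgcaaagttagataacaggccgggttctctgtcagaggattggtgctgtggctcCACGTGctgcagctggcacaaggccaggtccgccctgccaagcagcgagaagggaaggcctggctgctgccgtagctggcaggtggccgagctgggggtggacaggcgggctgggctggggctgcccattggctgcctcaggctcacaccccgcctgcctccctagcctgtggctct
Bhlhe41, chr6:145865371-145865670, minus strand: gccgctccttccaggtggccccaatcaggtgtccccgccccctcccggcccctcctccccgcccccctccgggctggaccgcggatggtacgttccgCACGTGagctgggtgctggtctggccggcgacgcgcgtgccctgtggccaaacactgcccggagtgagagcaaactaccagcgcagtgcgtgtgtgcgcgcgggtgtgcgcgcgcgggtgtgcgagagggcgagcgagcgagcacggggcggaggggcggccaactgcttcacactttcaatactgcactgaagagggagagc
The Ciart window holds 3 E-boxes, which begin 116, 58 and 44 bases before the start. The E-box begins 127 bases before the start in this first of 2 Tef windows and 153 bases before it in Bhlhe41. Of the 6 genes, Dbp, Nr1d1 and Rora had no E-box in their windows, and none of the 6 had the D-box TTATGTAA on either strand. Among the 32851 windows of the table, 7.15% held an E-box and 0.938% a D-box, and 19 of the 23 clock genes had a window, of which 5 held an E-box and 1 a D-box. Besides the 3 shown, these were Per1, which passed and has an E-box 166 bases before the start in the first of its 2 windows, and Cry1, which did not pass. The E-box reads the same on both strands, and a match describes these letters only.

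Among the repressors, Bhlhe41, which encodes DEC2, had 52.5, 58.4, 59.4, 41.3, 56.2 and 56.3 CPM with tianeptine in SNI and 34.7, 35.2, 35.7 and 40.3 CPM with desipramine. The lowest tianeptine library lay just above the highest desipramine library. The difference was 0.54 ± 0.11 (adjusted p = 0.0292) in SNI and 0.43 ± 0.11 (adjusted p = 0.137) in sham. Nr1d1, which encodes REV-ERB alpha, had 202, 209, 212, 210, 189 and 173 CPM with tianeptine and 170, 143, 158 and 184 CPM with desipramine in SNI. These groups overlap, since tianeptine replicate 6 lies below desipramine replicate 4, and the difference was 0.33 ± 0.06 (adjusted p = 0.0195). In sham mice Nr1d1 differed by 0.01 ± 0.06, and the SNI difference minus the sham difference was 0.32 (adjusted p = 0.0763), so a difference between surgeries did not pass. Nr1d2, which encodes REV-ERB beta, had 137, 144, 138, 125, 151 and 167 CPM with tianeptine in SNI, against 107, 106, 106 and 108 CPM with desipramine. It was 0.31 ± 0.08 higher (adjusted p = 0.0486), and in sham mice 0.49 ± 0.08 higher (adjusted p = 0.0106), without overlap in either surgery.

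**Figure D3:**
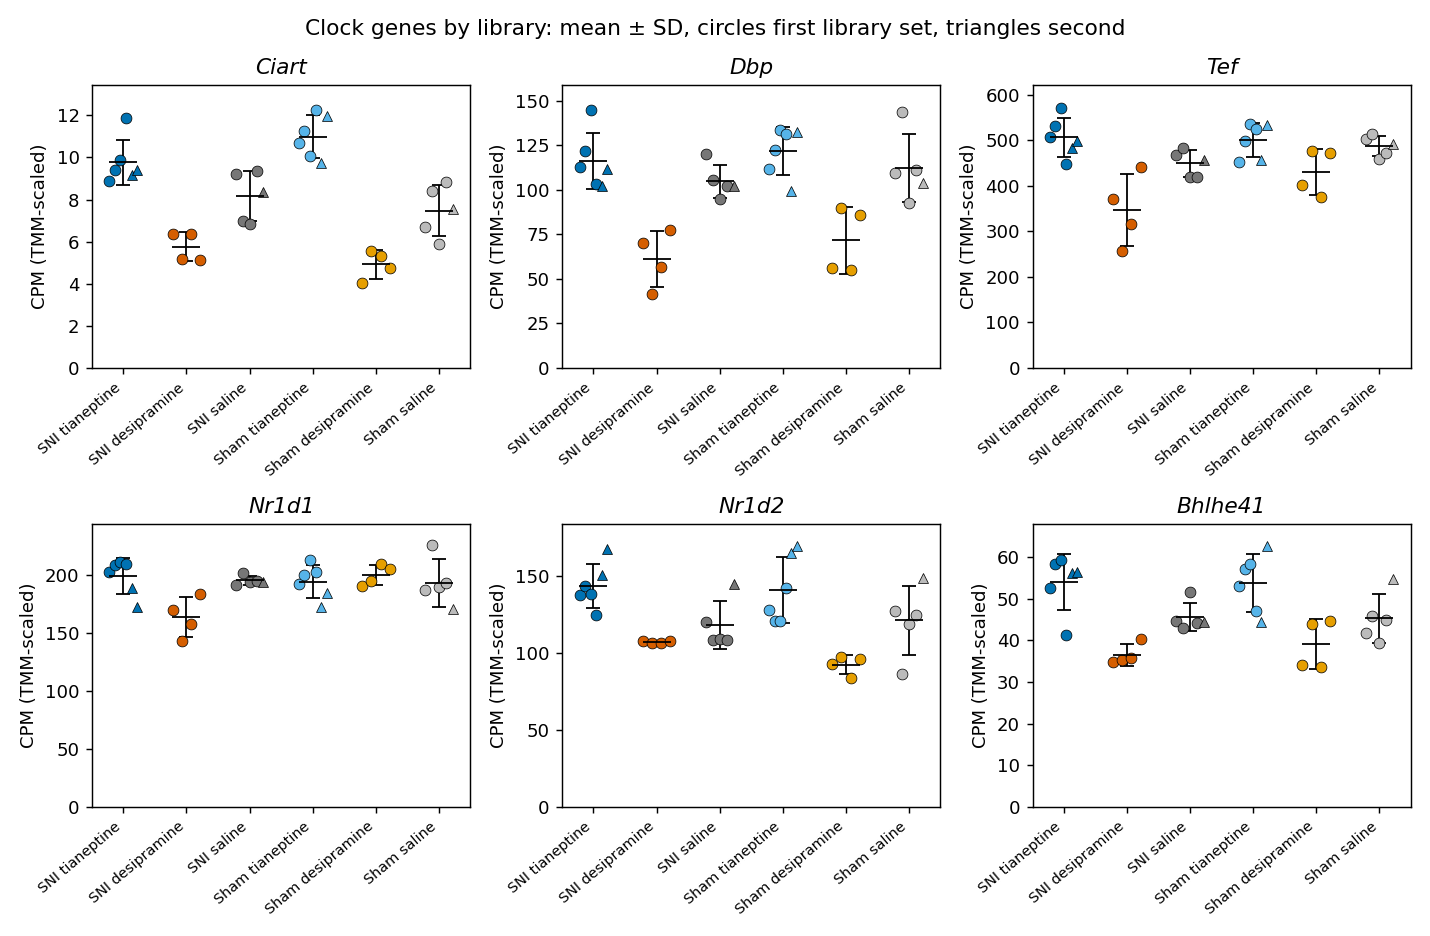
TMM-scaled CPM of 6 clock genes by group, with 1 point per library (circles first library set, triangles second), the mean as a bar and the SD as whiskers. SNI tianeptine and SNI desipramine libraries do not overlap for Ciart, Dbp, Tef, Nr1d2 and Bhlhe41 and overlap for Nr1d1, and the Ciart levels in sham mice are 9.73 to 12.3 CPM on tianeptine and 4.05 to 5.57 CPM on desipramine.

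Per1, a period repressor that is also induced by neuronal activity, ran from 115 to 152 CPM with tianeptine and had 96, 49.6, 74.1 and 116 CPM with desipramine in SNI (0.66 ± 0.17, adjusted p = 0.0483). Per2, Per3, Cry1 and Cry2 differed by 0.42, 0.36, 0.35 and 0.27 and did not pass, with adjusted p from 0.0623 to 0.0984. Rora, whose product activates Bmal1, was the clock gene that was lower, with 39.5 to 65.3 CPM on tianeptine and 52.7 to 63 CPM on desipramine (-0.51 ± 0.11, adjusted p = 0.0301). Within the first library set the groups did not overlap, since tianeptine replicates 1 to 4 ran from 39.5 to 43.6 CPM, and replicates 5 and 6 of the second set had 56.5 and 65.3 CPM. Rora is on the thalamic marker list too. Arntl, which encodes BMAL1, did not pass in SNI (-0.23 ± 0.12, adjusted p = 0.276), with 36.5 to 45.5 CPM on tianeptine and 51.4, 34.8, 42.4 and 68.3 CPM on desipramine. In sham mice it was lower with tianeptine (-0.66 ± 0.12, adjusted p = 0.0267), at 36.9 to 47.2 CPM against 59.2 to 71.9 CPM with desipramine. Clock itself differed by 0.02 ± 0.08 in SNI, with an interval from -0.15 to 0.19. Bhlhe41, Nr1d2, Per1, Per2, Per3, Cry1, Cry2, Hlf, Rora, Arntl and Clock were named after their values were seen.

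The clock list moved with the tissue markers in part. Its score ran from 0.02 to 0.16 in the tianeptine libraries and was -0.17, -0.53, -0.29 and -0.02 in SNI desipramine replicates 1 to 4, so it was lowest in the library with the lowest medium spiny score. Without desipramine replicates 2 and 3, Ciart differed by 0.78, Dbp by 0.70, Bhlhe41 by 0.51, Rora by -0.39, Tef by 0.33, Per1 by 0.33, Nr1d2 by 0.31 and Nr1d1 by 0.23, and none passed. With the medium spiny and septal scores as covariates, Dbp (0.68, adjusted p = 0.0156) and Tef (0.34, adjusted p = 0.00457) passed and Ciart (0.74, adjusted p = 0.0759) did not. Against SNI saline, as a description, Dbp differed by 0.16 ± 0.14 on tianeptine and -0.80 ± 0.16 on desipramine, Ciart by 0.26 ± 0.11 and -0.51 ± 0.13, and Nr1d2 by 0.24 ± 0.07 and -0.07 ± 0.08. The pair of saline comparisons share their saline libraries and each shares a drug group with the comparison of the drugs.

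**Figure D4:**
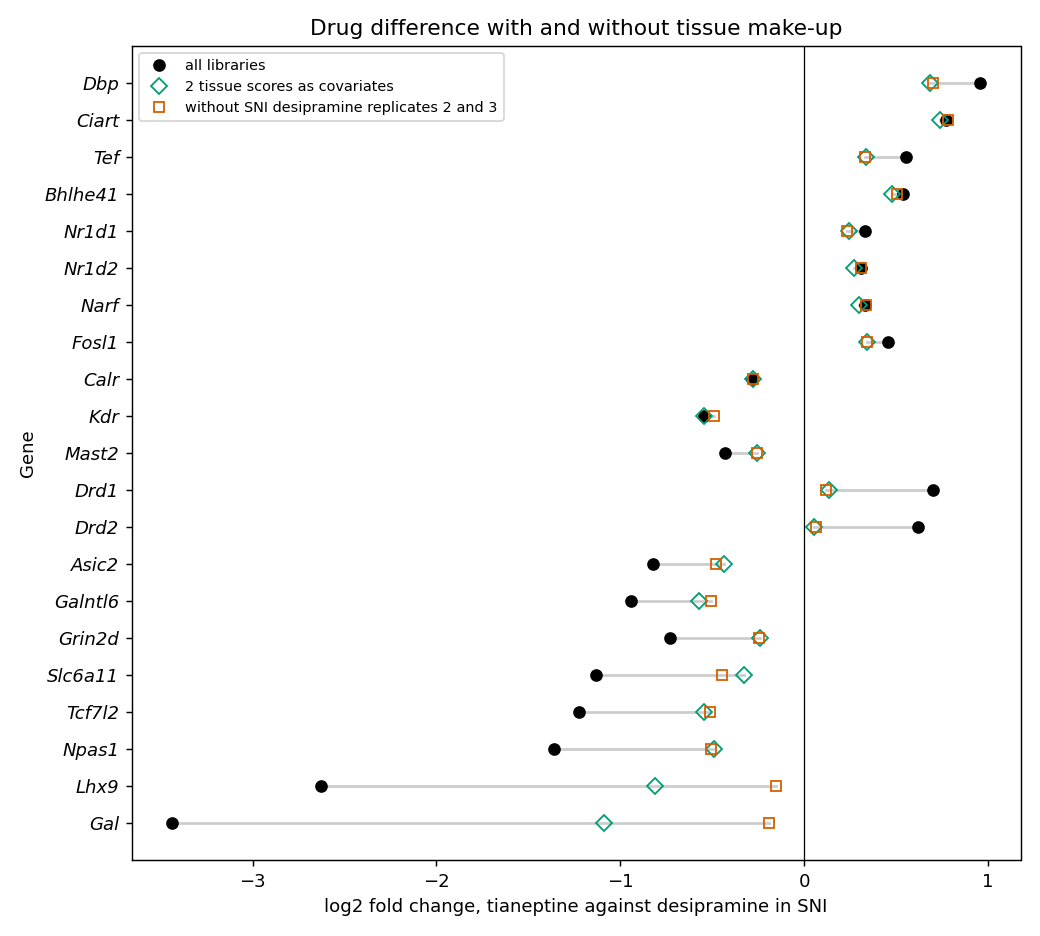
Log2 fold change of tianeptine against desipramine in SNI for 21 genes, with all libraries (black), with 2 tissue scores as covariates (green) and without SNI desipramine replicates 2 and 3 (orange). Ciart stands at 0.77, 0.74 and 0.78, and Gal at -3.44, -1.09 and -0.19. Gal is a member of the septal list, whose score is a covariate, so its green value is adjusted in part by its own level. Ciart is in neither score.

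Outside the clock, the higher genes of smallest p ranged over several functions. Narf, which encodes a prelamin-binding protein, had 56.7, 61.7, 59.6, 67.3, 59.9 and 55.6 CPM with tianeptine in SNI and 45.8, 48, 46.3 and 48.7 CPM with desipramine. It was 0.33 ± 0.06 higher (adjusted p = 0.017) without overlap, and it differed by 0.34 without desipramine replicates 2 and 3. Mxi1, an antagonist of MYC, ran from 62.8 to 68.7 CPM on tianeptine and 46.4 to 59.7 CPM on desipramine (0.31 ± 0.06, adjusted p = 0.0195). Fosl1, a member of the AP-1 transcription factors, ran from 6.39 to 8.35 CPM and 4.5 to 6.07 CPM (0.46 ± 0.09, adjusted p = 0.0292). In sham mice it did not overlap either, at 6.53 to 8.42 CPM on tianeptine and 5.46 to 5.76 CPM on desipramine (0.44 ± 0.09, adjusted p = 0.0658). Ube2t, a ubiquitin-conjugating enzyme of DNA repair, ran from 0.879 to 1.34 CPM on tianeptine and 0.378 to 0.74 CPM on desipramine (0.94 ± 0.19, adjusted p = 0.0278). Among larger changes, Igfbp4, which binds insulin-like growth factors, ran from 41 to 60.9 CPM on tianeptine and had 33.7, 16.1, 22.2 and 46.1 CPM on desipramine (0.91 ± 0.19, adjusted p = 0.0292). Its groups overlap at desipramine replicate 4, and it differed by 0.48 without replicates 2 and 3. Ccsap, a gene of centrioles and the spindle, ran from 32.5 to 39 CPM on tianeptine and 8.31 to 32.1 CPM on desipramine (0.80 ± 0.20, adjusted p = 0.046, and 0.35 without them). Colec11, a collectin of innate immunity, ran from 1.31 to 2.06 CPM on tianeptine and 0.584 to 1.36 CPM on desipramine, which overlap at desipramine replicate 1 (0.86 ± 0.17, adjusted p = 0.0278, and 0.53 without them). Markers of fibroblasts and meninges lay on the same side as these genes in SNI, positive in 14 of 15, with a median of 0.68. Over all genes 50.2% were positive. None of the 15 passed the threshold, where 1.33% of all genes did. Their score ran from -0.46 to 0.61 on tianeptine and -0.71 to -0.45 on desipramine, and their summed level from 179 to 253 CPM and 156 to 173 CPM, with counts for every marker in both groups. In sham mice 2 of the 15 were positive, with a median of -0.43. Their part in the gene differences was not tested.

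Ppp1r15b, a phosphatase subunit that restores protein synthesis after stress, ran from 58.7 to 71.8 CPM on tianeptine and 48.8 to 57.2 CPM on desipramine in SNI (0.23 ± 0.06, adjusted p = 0.0449). Aldh1l2, a mitochondrial folate enzyme on the same list of the integrated stress response, was lower, with 5.01 to 7.8 CPM on tianeptine and 11, 14.2, 12.8 and 6 CPM on desipramine (-0.69 ± 0.17, adjusted p = 0.0453, and -0.31 without replicates 2 and 3). Of the 20 genes of that list, 12 were positive, against 50.2% of all genes, with a median of 0.07. Adcy9, an adenylyl cyclase gene, ran from 62 to 75 CPM and 42.9 to 59.1 CPM (0.35 ± 0.09, adjusted p = 0.046). Ddit4, which restrains mTOR, ran from 37.1 to 41.3 CPM and 26.5 to 33.7 CPM and just missed the threshold (0.43 ± 0.11, adjusted p = 0.0501). Of the 19 glucocorticoid response genes, Per1 was the 1 that passed, where 0.32% of all genes were higher, and 17 were positive, against 50.2% of all genes, with a median of 0.32. Sgk1, a kinase gene that glucocorticoids induce, differed by 0.54 ± 0.15 (adjusted p = 0.0638), and by 0.28 without desipramine replicates 2 and 3.

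Among the lower genes, Gal, Lhx9 and Tcf7l2 are on the marker lists of other brain regions. Gal, the precursor of the neuropeptide galanin (chromosome 19, 3409915 to 3414544, minus strand), had 0.463, 0.479, 0.153, 0.478, 0.476 and 0.8 CPM with tianeptine in SNI. With desipramine it had 1.36, 11.4, 16.2 and 0.185 CPM. Its level was high in desipramine replicates 2 and 3 and within the tianeptine range in replicate 4. The difference was -3.44 ± 0.77 (adjusted p = 0.0365), and -0.19 without those replicates. Lhx9, a homeobox gene of the thalamus and habenula, had 0.191 to 0.448 CPM on tianeptine and 0.466, 4.74, 1.75 and 0.185 CPM on desipramine (-2.63 ± 0.54, adjusted p = 0.0292, and -0.15 without the same replicates). Tcf7l2, a transcription factor of thalamic neurons, had 6.84 to 15.8 CPM on tianeptine and 21.5, 42.8, 27.8 and 9.88 CPM on desipramine (-1.22 ± 0.29, adjusted p = 0.0419, and -0.51 without them). Among lower genes with a proper name and a mean log2 CPM of at least 1, the largest changes were in Sertm1, Npas1 and Paqr6, which are on none of the marker lists. Sertm1 ran from 7.72 to 16 CPM on tianeptine and had 31.7, 64.9, 30.8 and 7.4 CPM on desipramine (-1.53 ± 0.39, adjusted p = 0.0488, and -0.73 without the same replicates). Npas1, a transcription factor of inhibitory neurons, ran from 5.7 to 13.2 CPM on tianeptine and had 18.6, 43.7, 23.8 and 7.51 CPM on desipramine (-1.36 ± 0.31, adjusted p = 0.0382). Paqr6, a membrane progestin receptor gene, ran from 3.67 to 5.57 CPM on tianeptine and had 8.98, 20.7, 12.5 and 3.44 CPM on desipramine (-1.28 ± 0.29, adjusted p = 0.0369). In each of these 6 genes desipramine replicate 2 or 3 was the highest of the 10 libraries. Of 11 thalamic markers tested, 3 were lower and 10 negative, with a median of -0.83, and of 20 septal markers 1 was lower and 14 negative, with a median of -0.47. Over all genes, 1.01% were lower and 49.8% negative. In sham mice 8 of the 11 thalamic and 18 of the 20 septal markers were positive, with medians of 0.30 and 0.51, against 53.4% of all genes. These lists share Rora, Lhx9, Tcf7l2 and Gal with the calls above.

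Some single genes of transmission and channels were lower. Of 40 genes of ionotropic glutamate receptors and their scaffolds, 2 were lower, where 1.01% of all genes were, but 30 were positive, with a median of 0.14. Of 23 voltage-gated potassium channel genes 1 was lower and 14 were positive, with a median of 0.09. Of 20 GABA system genes 1 was lower and 13 were negative, with a median of -0.12. Of 26 dopamine receptor and cAMP signalling genes 1 was higher, 1 was lower and 17 were positive, with a median of 0.22. Over all genes tested, 50.2% were positive. Asic2, an acid-sensing channel gene, had 69.3, 57.9, 55.1, 69, 77.2 and 76.3 CPM on tianeptine in SNI and 108, 149, 122 and 70.3 CPM on desipramine (-0.82 ± 0.15, adjusted p = 0.0195). Slc6a11, the GABA transporter GAT3 of astrocytes, ran from 156 to 269 CPM on tianeptine and had 432, 778, 571 and 183 CPM on desipramine (-1.13 ± 0.29, adjusted p = 0.0486). Grin2d, an NMDA receptor subunit gene, differed by -0.73 ± 0.19, Cacng2, an auxiliary subunit of AMPA receptors, by -0.49 ± 0.10, Kcnc1, a fast potassium channel gene, by -0.60 ± 0.15 and Adcy8, a calcium-stimulated adenylyl cyclase gene, by -1.22 ± 0.30. For each of these 6 genes desipramine replicate 4 lay within the tianeptine range, and replicates 1 to 3 lay above it. Without desipramine replicates 2 and 3 their differences ran from -0.53 to -0.19.

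Glial genes followed. Aldh1l1, a folate enzyme that marks astrocytes, ran from 43.8 to 49.9 CPM on tianeptine and 51 to 69.1 CPM on desipramine in SNI (-0.35 ± 0.09, adjusted p = 0.0449). Olig2, a transcription factor of the oligodendrocyte lineage, ran from 24.5 to 30.8 CPM on tianeptine and 30.9 to 56.5 CPM on desipramine (-0.54 ± 0.14, adjusted p = 0.0453), and Lhfpl3, a gene of oligodendrocyte precursors, differed by -0.54 ± 0.12. Of 18 astrocyte markers 1 was lower and 14 negative, and of 12 precursor markers 2 were lower and 10 negative, where 1.01% of all genes were lower and 49.8% negative. Astrocyte scores ran from -0.16 to 0.10 on tianeptine and were 0.26, 0.57, 0.41 and -0.05 on desipramine, where replicates 2 and 3 were again the highest. With the medium spiny and septal scores as covariates, Aldh1l1 differed by -0.22, Olig2 by -0.28 and Lhfpl3 by -0.34. Without desipramine replicates 2 and 3 they differed by -0.23, -0.23 and -0.34, and none passed in either fit.

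Other lower genes of smallest p were Mast2, a microtubule-associated kinase gene, Galntl6, of a glycosyltransferase family, Bcl2l15, a BCL2 relative, Ceacam16, an adhesion molecule gene, Glrx3, a glutaredoxin gene, Frmd4a, a scaffold of cell polarity, and Mcc, a suppressor of WNT signalling. Their differences ran from -1.14 in Bcl2l15 to -0.25 in Glrx3, with adjusted p from 0.0195 to 0.0209. For each of these 7 genes the groups overlapped, since desipramine replicate 4 lay within the tianeptine range. Csmd2os, an antisense transcript, differed by -2.06 ± 0.38 (adjusted p = 0.0189) at 0.0382 to 0.375 CPM on tianeptine and 0.185 to 0.51 CPM on desipramine. Its levels are low, and the strand setting used for counting is not given in the sources used here, so that its reads and those of its partner cannot be told apart.

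Kdr and Calr were lower with tianeptine in both surgeries. Kdr, the VEGF receptor of endothelial cells (chromosome 5, 75932827 to 75978458, minus strand), had 12.6, 13.6, 12.5, 12.7, 10.6 and 14.4 CPM with tianeptine in SNI and 18.6, 20.7, 16.7 and 16.6 CPM with desipramine. The groups did not overlap, and the difference was -0.54 ± 0.14 (adjusted p = 0.0453), and -0.49 without desipramine replicates 2 and 3. In sham mice Kdr ran from 9.68 to 15.5 CPM on tianeptine and 17.4 to 26.6 CPM on desipramine (-0.78 ± 0.14, adjusted p = 0.013). Of 18 endothelial markers, Kdr was the 1 that passed in SNI, where 1.01% of all genes were lower, and 15 were negative with a median of -0.15. In sham mice Kdr was again the 1 that passed, where 0.0463% of all genes were lower, and 2 of the 18 were positive with a median of -0.29. Endothelial scores ran from -0.19 to 0.06 on tianeptine and -0.01 to 0.22 on desipramine in SNI, and from -0.44 to 0.22 on tianeptine and 0.08 to 0.36 on desipramine in sham. The part of vascular cells in the Kdr differences was not tested. Calr, which encodes the endoplasmic reticulum chaperone calreticulin, had 258, 257, 225, 215, 207 and 215 CPM with tianeptine in SNI and 294, 299, 288 and 296 CPM with desipramine. The groups did not overlap, and the difference was -0.28 ± 0.06 (adjusted p = 0.0376) in SNI, also -0.28 without desipramine replicates 2 and 3, and -0.40 ± 0.06 in sham (adjusted p = 0.0106). Of 18 endoplasmic reticulum chaperone genes, Calr was the 1 that passed, where 1.01% of all genes were lower, with 15 negative and a median of -0.17.

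In sham mice 17 genes passed, 0.0716% of those tested, 6 higher (0.0253%) and 11 lower (0.0463%). This count was 1 within the first library set and moved with single sham libraries. It was 8 without tianeptine replicate 1 or 2, 6 without tianeptine replicate 4 or desipramine replicate 1, 4 and 10 without desipramine replicates 2 and 3, and 38 without desipramine replicate 4. With SNI, 5 were shared, Ciart, Dbp and Nr1d2 higher and Kdr and Calr lower, which is 1.59% of the SNI calls and 29.4% of the sham calls. Of the 17 sham calls, 15 had the same sign in SNI. Of the 315 SNI calls, 150 had the same sign in sham, 47.6% against 48.9% of all genes tested, with 54 of the 76 higher and 96 of the 239 lower ones. The lower SNI calls had a median of -0.69 in SNI and 0.07 in sham. The test of the difference between surgeries gave 0 genes in edgeR (0%), with a smallest adjusted p of 0.0627 and 4580 genes at an unadjusted p under 0.05, while DESeq2 called 976 and limma-voom 0. In edgeR it gave 3626 genes without SNI desipramine replicate 4, 576 without SNI tianeptine replicate 6 and 86 without sham tianeptine replicate 3. Limma-voom with sample quality weights called 1907 genes with all libraries, so the number rests on the tool. In edgeR with all libraries, no gene passed as differing between the drugs in SNI and not in sham. Gal, for instance, differed by -3.44 in SNI and 0.61 in sham, and the difference of these had an adjusted p of 0.0796.

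**Figure D5:**
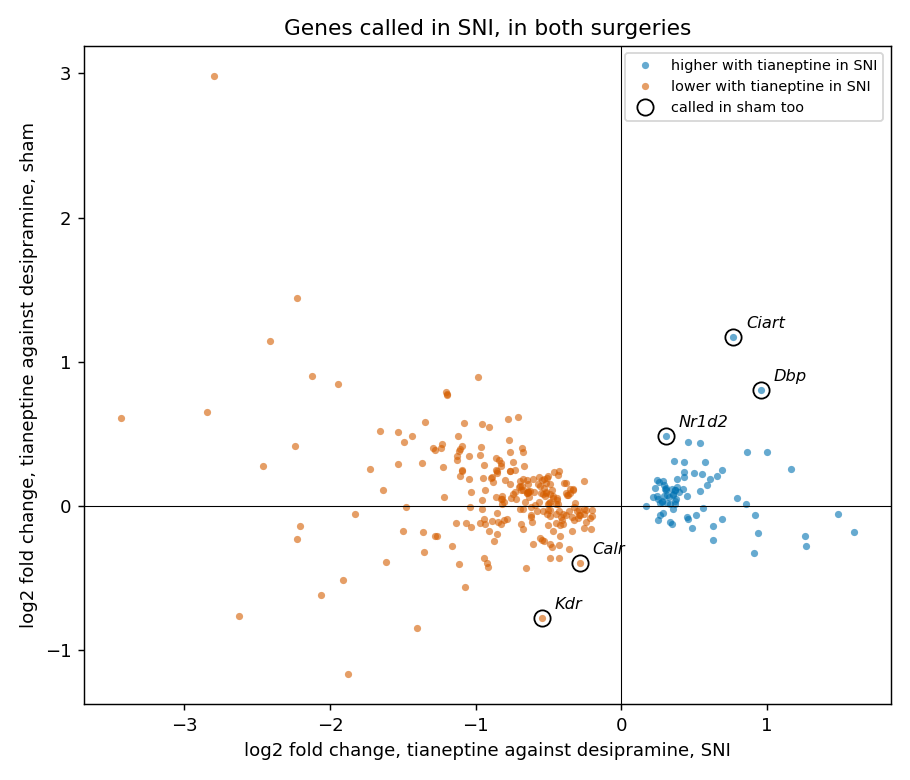
Log2 fold change of tianeptine against desipramine in SNI (x axis) and in sham (y axis) for the 315 genes that passed in SNI, blue where higher and orange where lower with tianeptine, with circles on the 5 that passed in sham too. Ciart, Dbp and Nr1d2 lie in the upper right and Kdr and Calr in the lower left.

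Vgf, a neuropeptide precursor induced by neurotrophins, and Spred2 and Spred3, inhibitors of the RAS-ERK pathway, passed in sham and not in SNI. Vgf had 215, 248, 226, 204, 247 and 221 CPM with tianeptine in SNI, against 248, 219, 261 and 291 CPM with desipramine. These overlap, and the difference was -0.15 ± 0.09 (adjusted p = 0.359), against -0.54 ± 0.09 in sham (adjusted p = 0.011). Spred3 ran from 52.9 to 61.8 CPM on tianeptine and 66.2 to 81.1 CPM on desipramine in SNI, without overlap (-0.28 ± 0.09, adjusted p = 0.078), and Spred2 from 72.1 to 86.5 CPM and 78.3 to 85.8 CPM (-0.08 ± 0.05, adjusted p = 0.376). The difference between surgeries did not pass for any of the 3, with adjusted p of 0.103 for Vgf, 0.105 for Spred2 and 0.497 for Spred3.

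The mu-opioid, noradrenaline and dopamine receptor genes named here did not pass. Oprm1, the mu-opioid receptor gene, had 79.1, 79.1, 70.9, 65.1, 91.5 and 81.1 CPM with tianeptine in SNI and 66, 67.8, 66.7 and 82.8 CPM with desipramine. The groups overlap, and the difference was 0.01 ± 0.16 (adjusted p = 0.981) with an interval from -0.32 to 0.34. Of 25 opioid system genes none passed, where 1.33% of all genes did. Of these 25, 14 were positive, against 50.2% of all genes. Adra2a, an autoreceptor of noradrenaline, differed by -0.28 ± 0.56 (adjusted p = 0.82), and none of 20 noradrenergic and monoamine genes passed. Both lists are short, so that no calls in them lies near the share of all genes. Drd1 and Drd2, the dopamine receptor genes of medium spiny neurons, differed by 0.70 ± 0.38 and 0.62 ± 0.34 (adjusted p of 0.286 and 0.3) and by 0.12 and 0.06 without desipramine replicates 2 and 3. Of 24 medium spiny neuron markers none passed and 23 were positive, against 50.2% of all genes, with a median of 0.51.

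Fos, the immediate early gene that marks recent neuronal activity, had 2.58, 20.5, 11.5, 30.3, 24.8 and 7.26 CPM with tianeptine in SNI and 5.48, 7.11, 10.9 and 9.59 CPM with desipramine (0.97 ± 0.58, adjusted p = 0.338). The tianeptine libraries lay on both sides of all the desipramine libraries. Of 31 immediate early genes, Per1 was the 1 that passed, where 0.32% of all genes were higher, and 29 were positive, against 50.2% of all genes, with a median of 0.55. Their score ran from -0.59 to 0.67 on tianeptine and from -1.07 to 0.03 on desipramine, and it was lowest in desipramine replicate 2. In sham mice 11 of the 31 were positive, with a median of -0.14, against 53.4% of all genes. Bdnf, the neurotrophin gene, differed by -0.18 ± 0.75 (adjusted p = 0.92), with 1.19 to 12.5 CPM on tianeptine and 1.87 to 5.36 CPM on desipramine.

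Cytosolic ribosomal protein genes were positive in 78 of 79, against 50.2% of all genes, with a median of 0.12. None passed the threshold, where 1.33% of all genes did. Their score ran from -0.07 to 0.07 on tianeptine and from -0.11 to -0.07 on desipramine. Rpl7a, a protein of the large subunit, had 36.4 to 55.4 CPM on tianeptine and 31.9 to 34.1 CPM on desipramine (0.20 ± 0.05, adjusted p = 0.0509). Nuclear long noncoding RNAs were negative in 10 of 11, against 49.8% of all genes, none past the threshold, with a median of -0.30. Their scores ran from -0.30 to 0.09 on tianeptine and from 0.10 to 0.35 on desipramine. Malat1, a long noncoding RNA of nuclear speckles, had 323, 478, 284, 839, 890 and 912 CPM with tianeptine and 948, 861, 882 and 893 CPM with desipramine in SNI (-0.88 ± 0.23, adjusted p = 0.0525). Tianeptine replicates 1 to 3 were low and the other 3 lay near the desipramine libraries. The part of RNA quality in the gene differences was not tested.

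With respect to saline, most of the 315 genes lay nearer saline with tianeptine than with desipramine. This held for 72 of the 76 higher and 231 of the 239 lower genes, against 16377 of all 23736 genes. The median difference from SNI saline was 0.08 on tianeptine and -0.33 on desipramine for the higher genes, and -0.11 on tianeptine and 0.57 on desipramine for the lower genes. These values describe the 315 genes and were not tested, since the choice of genes used the same libraries.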

How the data were processed

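RNA sequencing counts of nucleus accumbens punches from 30 mice were used, 1 library per animal, and groups were taken from the sample labels. Per the submitters' processing notes, the authors used Trim Galore, HISAT2, SAMtools and featureCounts on mm10, and the sources used here give no versions, strand setting or annotation release. The deposited table holds whole-number counts for 55401 gene IDs, of which 54349 matched GENCODE M21 exactly, 792 without version and 260 not (0.0509% of counts). A deposited table of FPKM was not used. Libraries held 24.5 to 120.7 M (mega) counts. No replicates of SNI tianeptine or SNI desipramine were near copies, with a chi-square of at least 6.89 per degree of freedom between their counts.

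Genes were kept by filterByExpr (23736 genes with 99.925% of counts) and scaled by TMM (the trimmed mean of M values). edgeR 4.0.16 in R 4.3.3 fitted a robust quasi-likelihood model to the counts of all 30 libraries, with a coefficient for each group and another for library set. This left 23 residual degrees of freedom, and the biological coefficient of variation was 17.5%. Contrasts were tested 2-sided with Benjamini-Hochberg adjustment over all genes and a threshold of 0.05. Where no tool is named, an adjusted p comes from edgeR. Levels are TMM-scaled counts per 1 M counts (CPM), scores use log2 values with a prior count of 2, and intervals have a level of 95% and are not adjusted for the number of genes. The scripts were tested on simulated data. Named genes were, among those passing, up to 10 per direction of smallest p, up to 5 per direction of largest change with mean log2 CPM of at least 1, up to 4 per list and a fixed set of targets, and unnamed gene models were only counted. The comparison, the 37 gene lists, the rule and the alternatives were chosen with earlier results of these data known. Alternatives were another scaling, no filter, DESeq2 1.42.0, limma 3.58.1 with voom, other model terms, and left-out libraries.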

Additional observations from a re-analysis of the deposited data

Results flagged for a closer look

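In 6 of 190 groups of values checked, the highest or lowest library stood apart from the rest of its group, and chance alone flags about 1 group in 20. Ciart was 11.9 CPM in SNI tianeptine replicate 4, with the next library of the group at 9.86 CPM. Oprm1 was 82.8 CPM in SNI desipramine replicate 4, with the next at 67.8 CPM, and Spred2 was 85.8 CPM in the same library, with the next at 79.5 CPM. The endothelial score was 0.22 in SNI desipramine replicate 2, with the next at 0.03. The dopamine receptor and cAMP signalling score was -0.24 in SNI tianeptine replicate 4, the lowest of its group, with the next at -0.01. The cytosolic heat shock score was -0.20 in SNI tianeptine replicate 3, the lowest of its group, with the next at -0.03.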

How the results depend on the processing

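The number of genes that passed between tianeptine and desipramine in SNI, 315 with all libraries, was 341 with DESeq2 size factors, 79 without a filter on low counts, 605 without the library set term and 27 within the first library set. It was 4 with 2 tissue scores as covariates, 4 with 3 scores (a choice made after seeing the data), 0 with only the drug groups of SNI in the fit and 0 without SNI desipramine replicates 2 and 3. DESeq2 called 1247, limma-voom 101 and limma-voom with sample quality weights 3243. Leaving out 1 library gave 0 to 4825. In sham, 17 genes passed with all libraries, 1 within the first library set, 35 with 2 tissue scores, 40 with 3 scores, 0 with only the sham drug groups, 152 with DESeq2, 439 with quality weights, 40 without SNI desipramine replicates 2 and 3, and 4 to 38 with 1 library left out. For the difference between surgeries, 0 genes passed, against 976 with DESeq2, 1907 with quality weights and 0 to 3626 with 1 library left out. The causes of these changes were not tested.

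With the replicate number as a block in place of the library set, 41 genes passed in SNI, all among the 315, 11 in sham and 0 for the difference. Same-numbered SNI tianeptine and SNI desipramine libraries correlated by 0.13, 0.0024, -0.14 and -0.07 in their deviations from the group means. Differently numbered ones correlated by -0.33 to 0.28. A pairing was not seen in these values, which cannot decide whether the animals were handled in pairs.

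Signs turned in 3 genes, none of which passed in any setting. Oprm1 was -0.051 without SNI desipramine replicates 2 and 3, and -0.026 to 0.11 with 1 library left out. Adra2a was 0.42 with 2 scores, 0.55 with 3 scores and 0.45 without desipramine replicates 2 and 3. Bdnf was 0.28 without the library set term, 0.16 within the first set, 0.15 with only the drug groups of SNI, 0.31 without desipramine replicates 2 and 3, and -1.41 to 0.043 with 1 library left out. With 4 desipramine libraries that differ in tissue markers, tissue make-up and the drug cannot be told apart for genes of other brain regions. The same holds for other genes that shrank without desipramine replicates 2 and 3, such as Igfbp4, Asic2 and Olig2. Absence of a call shows no likeness.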

Other observations

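Genes that passed in SNI differed in length along the genome, measured as the whole span with introns. Protein-coding genes higher with tianeptine had a median span of 11.3 kb, those lower with tianeptine 41.2 kb, and all tested ones 24.9 kb. Of the 16225 protein-coding genes tested, 61 were higher and 180 lower. They were put into 5 equal classes of span. The shortest class, of 3246 genes, held 21 higher and 21 lower genes. The longest class, of 3245 genes, held 5 higher and 63 lower genes. The median log2 fold change of tianeptine against desipramine in SNI was 0.02 in the shortest class and -0.02 in the longest. In sham these medians were 0.01 and -0.02. The longest class also moved with the library set. Its median centred log2 CPM was -0.07 to 0.02 in SNI tianeptine replicates 1 to 4. It was 0.07 and 0.12 in replicates 5 and 6. Why span and direction go together was not tested.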
